A study of Mus musculus with 12 samples.

Results

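Heat shock proteins and their cochaperones were followed in mouse pancreatic islets through 10 genes, Hspe1, Hspd1, Hspa9, Hspa8, Hspa4, Hsp90aa1, Hsp90ab1, Hsph1, Dnaja1 and Dnajb1. A gene was represented by the probe set whose annotated symbol is that gene alone and, where several were present, by the one with the highest mean over the 12 arrays. Of the 10 genes 9 had such a probe set, out of 19938 genes that had one; Hsp90ab1, the constitutive cytosolic Hsp90, had none and was not analysed here. The 9 genes comprised 6 that encode cytosolic proteins (Hspa8, Hsph1, Hspa4, Hsp90aa1, Dnaja1 and Dnajb1) and 3 that encode mitochondrial proteins (Hspe1, Hspd1 and Hspa9).

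Chaperones hold newly made or damaged proteins in a state from which they can fold, and they are sorted by compartment. In the cytosol, J proteins such as Dnaja1 and Dnajb1 deliver clients to Hsp70 proteins and start the cycle of ATP hydrolysis, Hsp110 proteins such as Hsph1 reset it by exchanging the nucleotide, and Hsp90 takes over clients such as steroid receptors and kinases. In the mitochondrial matrix Hspa9 helps to pull in imported proteins, and the chaperonin barrel of Hspd1 with its lid Hspe1 folds them. Islet beta cells make large amounts of secreted protein, and many of these chaperone genes are switched on together by heat shock factor when unfolded protein accumulates.

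The arrays were hybridised with RNA of whole isolated islets from adult female mice on a 129Sv background, in 4 groups of 3 arrays: pregnant Prlr-/- mice (P9.5, gestational day 9.5), Prlr+/+ mice at P9.5, non-pregnant (NP) Prlr-/- mice and NP Prlr+/+ mice. Prlr-/- mice lack the prolactin receptor in every tissue, and since they are otherwise sterile the pregnant Prlr-/- mice carried progesterone pellets, which the other 3 groups did not. Receptor loss and the pellet therefore cannot be told apart at P9.5, nor pregnancy and the pellet within Prlr-/- islets. The questions were what pregnancy changes in islets of each genotype, and what receptor loss changes before and during pregnancy.

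All values are log2 intensities, deposited to 1 decimal, so a step of 0.1 is the smallest difference that can be seen and the number of arrays limits the precision. Levels were compared between groups for the same probe set and not between genes. A difference is called here when the fold change was at least 1.5 and the limma p, adjusted by the Benjamini-Hochberg method over all 35511 probe sets, was under 0.05. No probe set named Prlr, so the deletion was not checked at its own mRNA. Xist, a noncoding RNA that female cells make from their silenced X chromosome, stood at 3.8 on the array labelled replicate 2 of Prlr+/+ P9.5 and at 10 to 10.7 on the other 11 arrays, while the Y-linked Kdm5d was between 4.1 and 4.6 on all 12 arrays. Leaving that array out left every count of called heat shock genes in each comparison as it was. The genotype difference in the pregnancy response of Hsbp1, described below, was not called without that array (-1.43, limma, adjusted p = 0.07325). Beta cell markers averaged 10.8 to 10.9 in the 4 groups, but single markers changed. Of 10, 2 were called higher and 2 lower in Prlr+/+ pregnancy (5.73% and 4.21% of all probe sets were). In Prlr-/- pregnancy 1 was called higher and none lower (7.44% and 7.09%). Acinar markers, from exocrine tissue that is carried along when islets are isolated, averaged 9.36 in Prlr-/- P9.5, 9.55 in Prlr+/+ P9.5, 10.4 in Prlr-/- NP and 9.92 in Prlr+/+ NP islets. In such whole-islet RNA, fewer cells of a type and less RNA per cell cannot be told apart.

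Heat shock factor binds repeats of the 5-base unit nGAAn in alternating orientation, and the starts of the heat shock genes were searched for it because the genes were compared as a group. The RefSeq promoter table (GRCm38.p6; 250 bases before to 50 bases after each start) held 6 of the 10 genes: Hspe1, Hspd1, Hspa4, Hsph1, Dnaja1 and Dnajb1. A run of 3 units was searched as GAANNTTCNNGAA and, for the other strand, TTCNNGAANNTTC. It was present in 198 of 32851 windows (0.603%) and in 3 of the 6 genes, Hspe1, Hspd1 and Hsph1. A run of 2 units (GAANNTTC or TTCNNGAA, both contained in the longer runs) was present in 15.1% of all windows and in 4 of the 6 genes. Of 88 other chaperone genes with a window, 2 held a run of 3 units, Chordc1, which encodes an Hsp90-binding protein, and the J protein gene Dnajb6. Windows of Hspe1 at chr1:55087898-55088197 (plus strand), Hsph1 at chr5:149636287-149636586 (minus strand) and Chordc1 at chr9:18292017-18292316 (plus strand) are shown 5′ to 3′, because they hold the longest runs or the only run in a cytosolic gene of the 6, with overlapping 3-unit matches in capitals.
Hspe1: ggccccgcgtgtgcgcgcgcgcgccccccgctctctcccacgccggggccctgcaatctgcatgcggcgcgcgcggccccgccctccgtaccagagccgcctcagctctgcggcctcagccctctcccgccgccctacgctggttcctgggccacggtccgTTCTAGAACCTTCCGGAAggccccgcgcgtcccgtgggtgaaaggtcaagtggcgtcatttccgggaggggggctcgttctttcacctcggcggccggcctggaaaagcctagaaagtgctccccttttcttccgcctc
Hsph1: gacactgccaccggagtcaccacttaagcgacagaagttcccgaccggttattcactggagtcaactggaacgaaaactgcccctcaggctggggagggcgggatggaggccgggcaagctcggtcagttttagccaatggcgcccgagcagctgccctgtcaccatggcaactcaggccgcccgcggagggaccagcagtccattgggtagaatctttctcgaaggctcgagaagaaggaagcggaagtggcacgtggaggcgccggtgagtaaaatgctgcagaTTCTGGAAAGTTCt
Chordc1: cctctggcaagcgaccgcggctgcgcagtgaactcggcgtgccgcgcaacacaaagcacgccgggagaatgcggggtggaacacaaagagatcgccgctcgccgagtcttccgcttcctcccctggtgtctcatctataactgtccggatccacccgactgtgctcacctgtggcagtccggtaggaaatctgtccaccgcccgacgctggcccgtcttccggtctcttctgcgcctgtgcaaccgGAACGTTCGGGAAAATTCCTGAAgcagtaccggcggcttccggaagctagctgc
Hspe1 and Hspd1 lie head to head on chromosome 1. A window of Hspd1 shares 285 of its 300 bases with that of Hspe1 and holds the same 18-base run on the other strand, so the run counts once for this gene pair. The run of Hspe1 begins 89 bases before the start of the gene, the 23-base run of Chordc1 begins 4 bases before it, and the 13-base run of Hsph1 lies within the first transcribed bases. A match describes the letters in the window, and no match says only that these letters are not there.

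In pregnancy the 3 mitochondrial chaperone genes were higher in islets of both genotypes, on every array. Hspe1, the lid of the mitochondrial chaperonin, stood at 8.5, 8.3 and 8.6 in Prlr-/- P9.5 islets and at 7.4, 7.5 and 7.4 in Prlr-/- NP islets. In Prlr+/+ islets it stood at 8.3, 8.2 and 8.3 at P9.5, against 7.6, 7.4 and 7.2 in NP islets. The 2 stages did not overlap in either genotype, and the lowest P9.5 array of all 6 was 0.6 above the highest NP array. The log2 fold change was 1.03 ± 0.115 (SE) in Prlr-/- islets, a fold of 2.05 (adjusted p = 0.000151), and 0.87 ± 0.115 in Prlr+/+ islets, a fold of 1.82 (adjusted p = 0.00071). A second probe set naming Hspe1 gave 1.03 in Prlr-/- and 0.93 in Prlr+/+ islets and was called in both.

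Hspd1, the barrel of the same chaperonin, stood at 9.8, 9.9 and 10 in Prlr-/- P9.5 islets and at 9.3, 9.4 and 9.3 in Prlr-/- NP islets. In Prlr+/+ islets it stood at 9.7, 9.7 and 9.6 at P9.5, against 9.4, 9.1 and 9.0 in NP islets. The stages again did not overlap in either genotype, but both changes were short of the 1.5-fold minimum. Pregnancy changed Hspd1 by 0.57 ± 0.110 in Prlr-/- (adjusted p = 0.00282) and 0.50 ± 0.110 in Prlr+/+ islets (adjusted p = 0.00808). The second probe set of Hspd1 passed the minimum, with 0.83 in Prlr-/- (adjusted p = 0.00442) and 0.60 in Prlr+/+ islets (adjusted p = 0.0306). RefSeq lists 23 pseudogenes named after Hspd1, 7 after Hspe1, and 1 each after Hspa9 and Dnaja1. Copies under other names were not counted, for any of the heat shock genes. Probe positions were not given, so whether a probe set reads the gene itself or a copy was not checked.

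Hspa9, the Hsp70 of the mitochondrial matrix, stood at 9.8 on all 3 Prlr-/- P9.5 arrays and at 9.3 on all 3 Prlr-/- NP arrays. In Prlr+/+ islets it stood at 9.8, 9.8 and 9.7 at P9.5, against 9.5, 9.3 and 9.3 in NP islets. It was thus the gene with the narrowest spread, and its stages did not overlap. The log2 fold change was 0.50 ± 0.0842 in Prlr-/- (adjusted p = 0.00128) and 0.40 ± 0.0842 in Prlr+/+ islets (adjusted p = 0.00654), both under the 1.5-fold minimum.

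**Figure D1:**
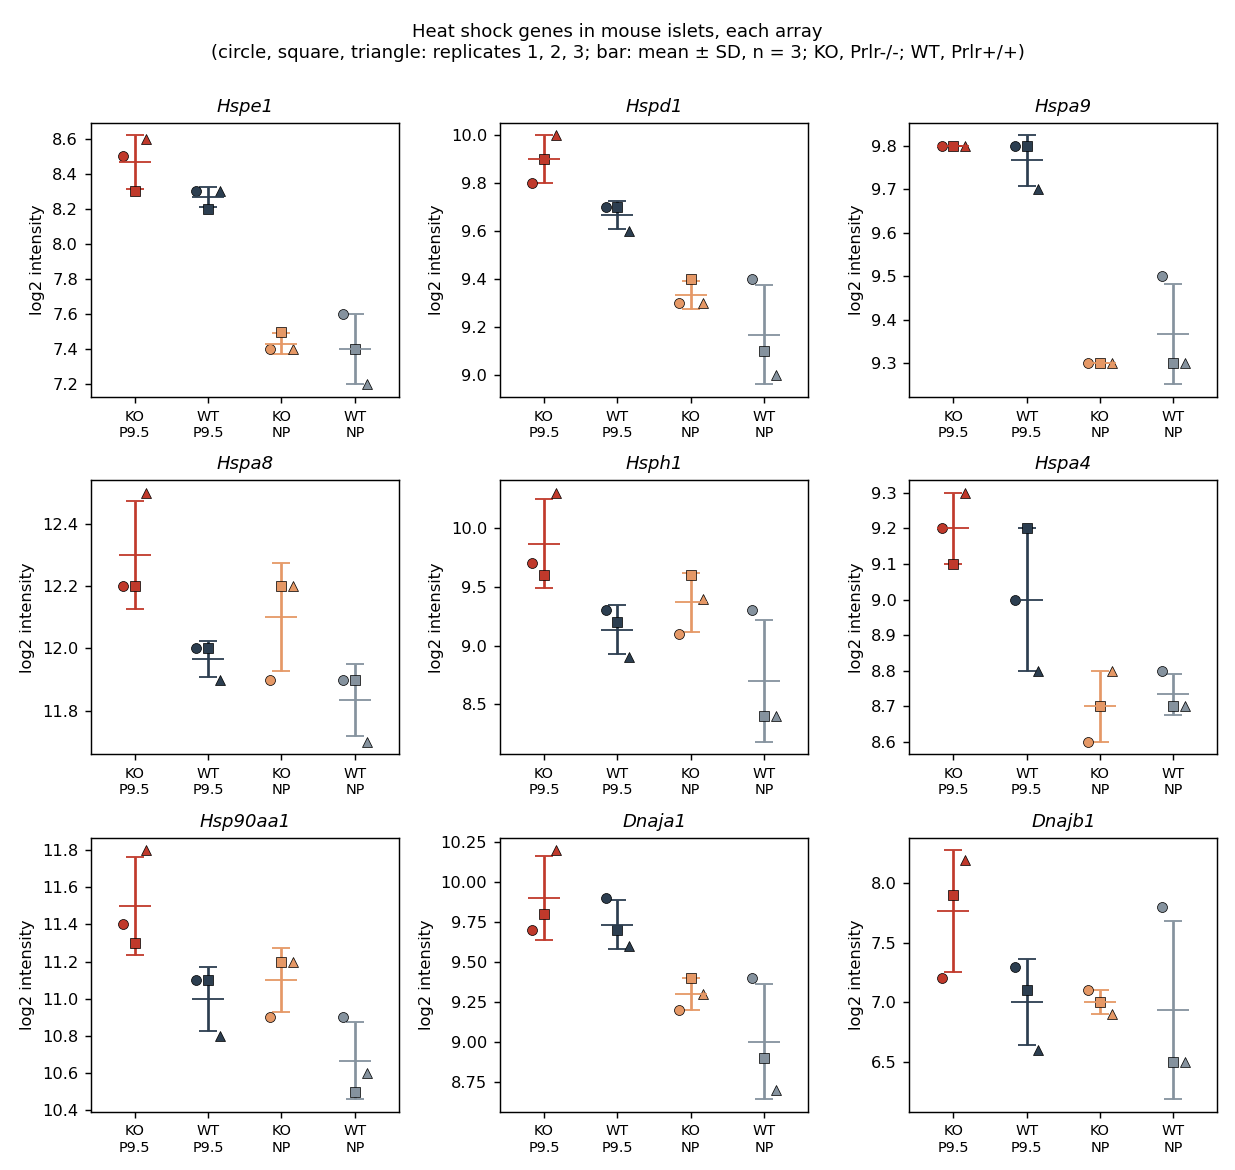
Log2 intensity of the 9 heat shock genes on each of the 12 arrays (y axis, own scale for each gene), by group (x axis: Prlr-/- as KO, Prlr+/+ as WT, at P9.5 and non-pregnant, NP). Points are arrays, with the shape giving the replicate number, and bars are the mean ± SD of 3 arrays. Hspe1, Hspd1, Hspa9 and Dnaja1 separate by stage. Hspa8, Hsph1 and Hsp90aa1 have their second highest mean in Prlr-/- NP islets, and Dnajb1 is high on 1 Prlr+/+ NP array at 7.8. Means are higher in Prlr-/- islets at both stages in 7 of the 9 genes, all but Hspa4 and Hspa9.

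Among the cytosolic genes only Dnaja1, which delivers clients to Hsp70, was called in pregnancy, with 9.7, 9.8 and 10.2 in Prlr-/- P9.5 islets, against 9.2, 9.4 and 9.3 in Prlr-/- NP islets. In Prlr+/+ islets it stood at 9.9, 9.7 and 9.6 at P9.5 and at 9.4, 8.9 and 8.7 in NP islets. The stages did not overlap in either genotype. The log2 fold change was 0.60 ± 0.179 in Prlr-/- (adjusted p = 0.0239) and 0.73 ± 0.179 in Prlr+/+ islets (adjusted p = 0.0134). The call rested on this probe set, since a second one naming Dnaja1, at 6.9 to 7.8 over the 12 arrays, gave 0.33 in Prlr-/- (adjusted p = 0.144) and 0.17 in Prlr+/+ islets (adjusted p = 0.508). Another, which names Dnaja1 together with the microRNA gene Mir207, gave -0.43 in Prlr-/- islets (adjusted p = 0.0327), with every P9.5 array below the NP arrays, and -0.20 in Prlr+/+ islets (adjusted p = 0.329), so it ran opposite to the probe set used, short of the fold minimum. The call in each genotype was also lost in 3 of 12 fits without 1 array. Here and in later counts of such fits, a fold change moves only without an array of the groups compared. The lowest value was 0.45 (adjusted p = 0.0993) in Prlr-/- islets without replicate 3 of Prlr-/- P9.5. The arrays concerned were replicate 3 of Prlr-/- P9.5 and replicates 1 and 3 of Prlr-/- NP for Prlr-/- islets, and replicate 1 of Prlr+/+ P9.5 and replicates 2 and 3 of Prlr+/+ NP for Prlr+/+ islets.

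Hspa4, an Hsp110-type exchange factor of Hsp70, stood at 9.2, 9.1 and 9.3 in Prlr-/- P9.5 and at 8.6, 8.7 and 8.8 in Prlr-/- NP islets, which do not overlap. In Prlr+/+ islets the values were 9.0, 9.2 and 8.8 at P9.5, against 8.8, 8.7 and 8.7 in NP islets, and these overlapped at 8.8. Pregnancy changed it by 0.50 ± 0.112 in Prlr-/- islets (adjusted p = 0.00594), and in Prlr+/+ islets the value was 0.27 ± 0.112 (adjusted p = 0.109).

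The other 4 cytosolic genes had positive changes that did not pass the test at either genotype. Hspa8, the constitutive Hsp70, differed between stages by 0.20 ± 0.118 in Prlr-/- and 0.13 ± 0.118 in Prlr+/+ islets. Of the other probe sets that name Hspa8 alone, 1 gave 0.23 in Prlr-/- and 0.13 in Prlr+/+ islets, and the other gave 0.47 in Prlr-/- (adjusted p = 0.115) and 0.53 in Prlr+/+ islets (adjusted p = 0.0984), where its stages did not overlap. Hsp90aa1, the inducible Hsp90, gave 0.40 ± 0.158 in Prlr-/- (adjusted p = 0.0712) and 0.33 ± 0.158 in Prlr+/+ islets (adjusted p = 0.154). Hsph1 gave 0.50 ± 0.255 in Prlr-/- (adjusted p = 0.149) and 0.43 ± 0.255 in Prlr+/+ islets (adjusted p = 0.248). The strongly stress-inducible Dnajb1 had the widest intervals, with 0.77 (95% interval 0.021 to 1.51) in Prlr-/- and 0.067 (-0.68 to 0.81) in Prlr+/+ islets, and it was called in Prlr-/- islets without replicate 1 of Prlr-/- P9.5 at 1.05 (adjusted p = 0.0482) or without replicate 1 of Prlr+/+ NP at 0.77 (adjusted p = 0.0299). With 1 probe set per named gene it was also called in Prlr-/- islets, at 0.77 (adjusted p = 0.0354).

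Counted over the 9 genes, 2 were called higher in pregnancy in Prlr-/- islets, where 7.44% of all probe sets were called higher, and the same 2, Hspe1 and Dnaja1, in Prlr+/+ islets, where 5.73% were. At an adjusted p under 0.05 with no fold minimum, 5 of 9 were higher in Prlr-/- islets (Hspe1, Hspd1, Hspa9, Hspa4 and Dnaja1), with 15.6% of all probe sets higher by that rule, and 4 of 9 in Prlr+/+ islets (without Hspa4), with 11.5% of all probe sets. On the probe sets used none was called lower, where 7.09% of all probe sets were in Prlr-/- and 4.21% in Prlr+/+ islets. Without the fold minimum none of these 9 probe sets was lower either, where 17.7% of all probe sets were in Prlr-/- and 10.3% in Prlr+/+ islets. At an unadjusted p under 0.05 none was lower, where 8798 of 35511 probe sets were in Prlr-/- and 6700 in Prlr+/+ islets. The median log2 fold change of the 9 genes was 0.50 in Prlr-/- and 0.40 in Prlr+/+ islets, against -0.067 for all probe sets in each genotype. The P9.5 and NP arrays did not overlap for 7 of 9 genes in Prlr-/- islets (19.4% of all probe sets, on the higher side) and for 4 of 9 in Prlr+/+ islets (15%). The 2 pregnancy comparisons share no arrays. In the same Prlr-/- comparison 10 of 18 acinar markers were called lower and 1 higher, with a median of -1.22 and a range from -1.87 to 0.93, and in Prlr+/+ islets none was called lower and 1 higher, with a median of -0.42. Of 14 endothelial and stromal markers, 1 was called higher in Prlr-/- islets (Tek, median of the list 0.17) and 2 were called lower in Prlr+/+ islets (Plvap and Sparc, median -0.23), and the difference of the 2 pregnancy changes was above 0 for all 14, with none called. Averaged over these 14, the level was 7.70 to 7.76 on the Prlr-/- P9.5 arrays, 7.48 to 7.64 on the Prlr+/+ P9.5 arrays, 7.38 to 7.71 on the Prlr-/- NP arrays and 7.76 to 7.94 on the Prlr+/+ NP arrays. The part of these markers in the result was not tested.

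**Figure D2:**
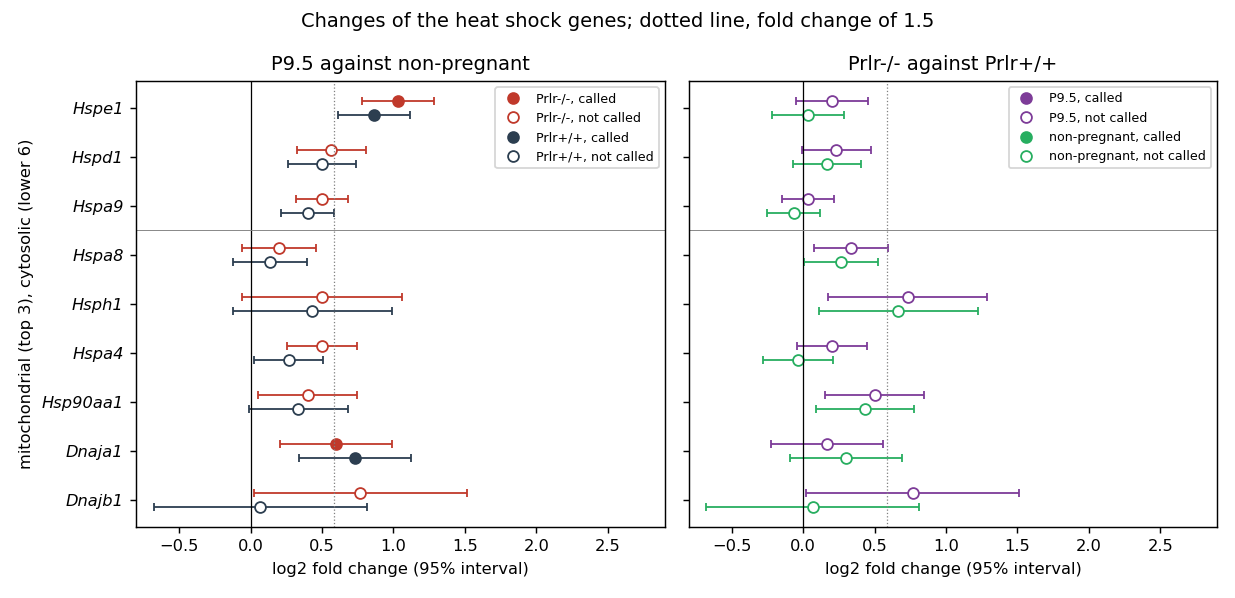
Log2 fold change of each gene (x axis) with its 95% interval from the limma fit of 12 arrays, for P9.5 against non-pregnant islets (left panel; Prlr-/- above Prlr+/+) and for Prlr-/- against Prlr+/+ islets (right panel; P9.5 above non-pregnant). Filled points were called, the dotted line marks a fold of 1.5, and the 3 mitochondrial genes stand above the horizontal line. Hspe1 and Dnaja1 are called in pregnancy in both genotypes and no gene is called between genotypes.

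Between genotypes no heat shock gene was called at either stage, and the genes with the larger differences were cytosolic. Hsph1 stood at 9.7, 9.6 and 10.3 in Prlr-/- P9.5 islets, against 9.3, 9.2 and 8.9 in Prlr+/+ P9.5 islets, with no overlap. In NP islets it stood at 9.1, 9.6 and 9.4 in Prlr-/- and at 9.3, 8.4 and 8.4 in Prlr+/+ mice, where Prlr+/+ replicate 1 lay among the Prlr-/- arrays. Its difference between genotypes was 0.73 ± 0.255 at P9.5 (adjusted p = 0.703) and 0.67 ± 0.255 in NP islets (adjusted p = 0.319).

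Hsp90aa1 stood at 11.4, 11.3 and 11.8 in Prlr-/- P9.5 islets, against 11.1, 11.1 and 10.8 in Prlr+/+ P9.5 islets, again with no overlap. In NP islets the values were 10.9, 11.2 and 11.2 in Prlr-/- and 10.9, 10.5 and 10.6 in Prlr+/+ mice, which meet at 10.9. Here the log2 difference was 0.50 ± 0.158 at P9.5 (adjusted p = 0.585) and 0.43 ± 0.158 in NP islets (adjusted p = 0.299).

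Hspa8 stood at 12.2, 12.2 and 12.5 in Prlr-/- P9.5 islets, against 12, 12 and 11.9 in Prlr+/+ P9.5 islets, with no overlap. In NP islets the values were 11.9, 12.2 and 12.2 in Prlr-/- and 11.9, 11.9 and 11.7 in Prlr+/+ mice, which meet at 11.9. For Hspa8 the log2 difference was 0.33 ± 0.118 at P9.5 (adjusted p = 0.718) and 0.27 ± 0.118 in NP islets (adjusted p = 0.387). The other probe sets naming Hspa8 alone gave 0.40 and 0.33 at P9.5 and 0.30 and 0.40 in NP islets, and none was called.

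Dnajb1, a cochaperone of Hsp70 that heat shock factor induces strongly, varied most between arrays of 1 group. It stood at 7.2, 7.9 and 8.2 in Prlr-/- P9.5 islets and at 7.3, 7.1 and 6.6 in Prlr+/+ P9.5 islets, with a log2 fold change of 0.77 ± 0.341 (adjusted p = 0.899). In NP islets it stood at 7.1, 7.0 and 6.9 in Prlr-/- and at 7.8, 6.5 and 6.5 in Prlr+/+ mice, with 0.067 ± 0.341. The high value of Prlr+/+ NP replicate 1 was set against 6.5 on both other arrays of its group.

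Of the remaining genes, Hspa4 differed between genotypes by 0.20 at P9.5 and -0.033 in NP islets, and Dnaja1 by 0.17 at P9.5 and 0.30 in NP islets. Among the mitochondrial genes Hspd1 differed by 0.23 at P9.5 and 0.17 in NP islets, Hspe1 by 0.20 at P9.5 and 0.033 in NP islets, and Hspa9 by 0.033 at P9.5 and -0.067 in NP islets. On the probe set used, Hspd1 was the only mitochondrial gene whose genotypes did not overlap at P9.5. The second probe set of Hspd1 gave 0.10 at P9.5, where the genotypes overlapped, and -0.13 in NP islets. The number of genes called higher was 0 of 9 at P9.5 (0.0253% of all probe sets were called higher) and 0 of 9 in NP islets (0.0929%). At an unadjusted p under 0.05, 4 of 9 were higher at P9.5 (991 of 35511 probe sets) and 3 of 9 in NP islets (2534 of 35511). None was called lower at P9.5 (0.206% of all probe sets were) or in NP islets (0.00845%). At an unadjusted p under 0.05 none was lower either (934 of 35511 probe sets at P9.5 and 1842 in NP islets). The Prlr-/- arrays lay wholly above the Prlr+/+ arrays for 4 of 9 genes at P9.5, where 3.16% of all probe sets did so, and for none in NP islets (6.47% of all probe sets). All 9 fold changes were above 0 at P9.5 and 7 of 9 in NP islets, against 45.4% and 49.1% of all probe sets. In NP islets 13 of the 14 endothelial and stromal markers were below 0 in Prlr-/- against Prlr+/+ mice (median -0.27) and 17 of 18 acinar markers were above 0 (median 0.55), with none called, and the part of either list in the heat shock gene values was not tested.

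Averaging the genotype difference over both stages, a comparison chosen after these values had been seen, gave 0.70 (95% interval 0.31 to 1.09) for Hsph1, 0.47 (0.22 to 0.71) for Hsp90aa1 and 0.30 (0.12 to 0.48) for Hspa8. Their adjusted p-values were 0.290, 0.254 and 0.365, so none was called, and 0 of 9 genes were (0.0563% of all probe sets were called higher and 0.0873% lower). The mitochondrial genes gave 0.20 for Hspd1, 0.12 for Hspe1 and -0.017 (-0.15 to 0.11) for Hspa9. The second probe set of Hspd1 gave -0.017.

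The test of whether pregnancy acted differently in the 2 genotypes called none of the 9 genes, in a comparison where 0.0788% of all probe sets were called lower and none higher. No gene had an unadjusted p under 0.05, where 1513 of 35511 probe sets were higher and 1985 lower by that rule. The difference of the 2 pregnancy changes, Prlr-/- minus Prlr+/+, was between -0.13 for Dnaja1 and 0.23 for Hspa4 in 8 genes, and 0.70 (95% interval -0.35 to 1.75) for Dnajb1. For Hspe1 it was 0.17 (-0.19 to 0.52) and for Hspd1 0.067 (-0.27 to 0.41).

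The group means followed 2 main orders. In all 9 genes the mean was highest in Prlr-/- P9.5 islets, and in 7 of 9 it was lowest in Prlr+/+ NP islets, the exceptions being Hspa4 and Hspa9, which were lowest in Prlr-/- NP islets. The second place was taken by Prlr+/+ P9.5 islets in 5 genes (Hspe1, Hspd1, Hspa9, Hspa4 and Dnaja1) and by Prlr-/- NP islets in 3 genes (Hspa8, Hsph1 and Hsp90aa1), with a tie for Dnajb1. These places are those of the probe sets used. On another probe set naming Hspa8 alone, Prlr+/+ P9.5 islets were second, at 10.7 against 10.57 in Prlr-/- NP islets. On a further one Prlr-/- NP islets stayed second, at 11.9 against 11.73 in Prlr+/+ P9.5 islets. The second probe set of Hspd1 was lowest in Prlr-/- NP islets, at 7.93 against 8.07 in Prlr+/+ NP islets. The neighbours in these orders mostly overlapped: Prlr-/- and Prlr+/+ NP arrays overlapped in all 9 genes, and Prlr-/- and Prlr+/+ P9.5 arrays in 5.

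To set the compartments against each other, each gene was taken relative to its own mean over the 12 arrays and averaged over the 6 cytosolic and over the 3 mitochondrial genes, as a description without a test. The mitochondrial mean was 0.38, 0.34 and 0.48 on the Prlr-/- P9.5 arrays, 0.28, 0.24 and 0.21 on the Prlr+/+ P9.5 arrays, -0.32, -0.26 and -0.32 on the Prlr-/- NP arrays and -0.16, -0.39 and -0.49 on the Prlr+/+ NP arrays. All 6 pregnant arrays were above 0 and all 6 non-pregnant arrays below it. The cytosolic mean was 0.24, 0.33 and 0.73 on the Prlr-/- P9.5 arrays, 0.11, 0.06 and -0.23 on the Prlr+/+ P9.5 arrays, -0.19, 0.03 and -0.03 on the Prlr-/- NP arrays and 0.03, -0.51 and -0.56 on the Prlr+/+ NP arrays. Here the Prlr+/+ P9.5 and Prlr-/- NP arrays overlapped, Prlr-/- P9.5 replicate 3 was the highest array and Prlr+/+ NP replicate 1 lay far above the other 2 of its group.

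Pregnancy moved the mitochondrial mean by 0.70 in Prlr-/- and 0.59 in Prlr+/+ islets and the cytosolic mean by 0.49 in Prlr-/- and 0.33 in Prlr+/+ islets. Genotype moved the cytosolic mean by 0.45 at P9.5 and 0.28 in NP islets, and the mitochondrial mean by 0.16 at P9.5 and 0.04 in NP islets. Cytosolic minus mitochondrial, the change was -0.21 for pregnancy in Prlr-/- islets and -0.26 in Prlr+/+ islets, and 0.29 for genotype at P9.5 and 0.24 in NP islets. These differences compare with a pooled SD of 0.154 between arrays of 1 group for the same quantity, and single arrays moved them. The pregnancy value in Prlr-/- islets was -0.12 without replicate 1 of Prlr-/- P9.5 and -0.31 without replicate 3, and in Prlr+/+ islets it was -0.17 without replicate 1 of Prlr+/+ NP. The genotype value at P9.5 was 0.19 without replicate 3 of Prlr-/- P9.5, and in NP islets it lay between 0.18 and 0.33 without each array in turn. Without Prlr+/+ NP replicate 1, the array in which Dnajb1, Hsph1 and the inducible Hsp70 gene Hspa1a (6.7, against 5.9 and 6.0 on the other 2 arrays) were high, Hsph1 and Hspd1 were also called in Prlr+/+ pregnancy, which made 4 genes. On that array the glucocorticoid-induced Hsp90 cochaperone gene Fkbp5 was low, at 9.0 against 9.9 and 9.8.

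**Figure D3:**
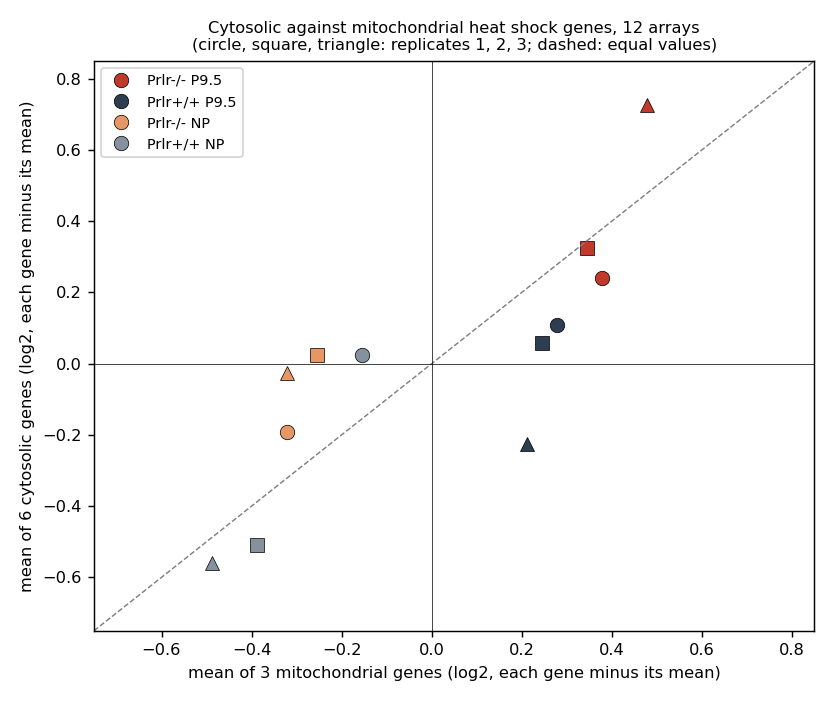
Mean of the 6 cytosolic genes (y axis) against the mean of the 3 mitochondrial genes (x axis) on each of the 12 arrays, in log2 units after subtracting each gene's own mean over all arrays. Points are arrays, coloured by group, and the dashed line marks equal values. The stages separate along the x axis, with all 6 P9.5 arrays right of 0, and within each stage the Prlr-/- arrays lie higher on the y axis apart from Prlr+/+ NP replicate 1 at 0.03.

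The genes whose course over the 12 arrays was most like the cytosolic mean were Stip1 (mean absolute difference of 0.0694 log2 units), Slc25a38 (0.075), Hspa4l (0.0861), Ahsa2 (0.0944) and Rad51c (0.0972), where the median over 13513 genes was 0.294. Stip1 encodes the adaptor that bridges Hsp70 and Hsp90, Hspa4l an Hsp110-type protein, and Ahsa2 a relative of the activator of the Hsp90 ATPase. Stip1 stood at 9.6, 9.5 and 10.1 in Prlr-/- P9.5, 9.4, 9.6 and 9.1 in Prlr+/+ P9.5, 9.1, 9.4 and 9.2 in Prlr-/- NP and 9.3, 8.9 and 8.8 in Prlr+/+ NP islets. For the mitochondrial mean the closest were Vps45 (0.05), Zc2hc1a (0.0532), Rbx1 (0.0556), Gpbp1 (0.0574) and Ate1 (0.0574), against a median of 0.320, and none of these 5 is a mitochondrial chaperone gene. Among the cytosolic genes themselves Hsp90aa1 was closest to the cytosolic mean (0.0806) and Dnajb1 farthest (0.239). Hspa4 lay nearer to the mitochondrial mean (0.138) than to the cytosolic mean (0.175) of which it is part. Dnaja1 lay about equally near to the mitochondrial (0.133) and the cytosolic mean (0.135).

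The wider chaperone network was read from 8 lists of 105 genes, of which 103 were measured. In pregnancy 20 were called higher and 1 lower in Prlr-/- islets, and 21 higher and 2 lower in Prlr+/+ islets. The medians were 0.33 in Prlr-/- and 0.23 in Prlr+/+ islets. Beside these counts and those of each list below, 7.44% of all probe sets were called higher and 7.09% lower in Prlr-/- pregnancy. In Prlr+/+ pregnancy the shares were 5.73% higher and 4.21% lower. The lists differed in how many of their genes were called. Of 14 endoplasmic reticulum chaperones, 9 were called higher in Prlr-/- and 7 in Prlr+/+ islets, with medians of 0.77 and 0.62, and the highest was Hspa13, an Hsp70 of the secretory pathway, at 1.37 ± 0.144 in Prlr-/- and 1.13 ± 0.144 in Prlr+/+ islets. Of 14 genes of the cytosolic chaperonin TRiC and its partner prefoldin, 4 were called in Prlr-/- (Cct3, Cct6a, Cct8 and Vbp1) and 5 in Prlr+/+ islets (these and Pfdn2), all higher. In Prlr+/+ islets the call was lost for Cct3 in 2, and for Cct6a and Pfdn2 in 3, of 12 fits without 1 array. Of 9 small heat shock protein genes and of 7 other cytosolic Hsp70 and Hsp110 genes none was called in either genotype. The inducible Hspa1a stood at 6.0, 6.6 and 6.6 in Prlr-/- P9.5, 6.0 on all 3 Prlr+/+ P9.5, 6.4, 6.4 and 6.1 in Prlr-/- NP and 6.7, 5.9 and 6.0 in Prlr+/+ NP arrays, and Hspb1, a small heat shock protein, gave -0.37 ± 0.150 in Prlr+/+ pregnancy (adjusted p = 0.101).

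Of 19 other mitochondrial chaperones and proteases 1 was called, Yme1l1, a protease of the inner membrane, at 0.73 ± 0.0928 in Prlr-/- and 0.87 ± 0.0928 in Prlr+/+ islets. The medians of that list were 0.30 in Prlr-/- and 0.23 in Prlr+/+ islets, and Trap1, the mitochondrial Hsp90, gave 0.47 (adjusted p = 0.00543) in Prlr+/+ islets. In Prlr-/- islets Trap1 stood at 8.4, 8.3 and 8.4 at P9.5, against 7.9, 8.1 and 8.2 in NP islets. Of 12 other cytosolic J protein genes, Dnajc7 was called at 0.60 in Prlr-/- and 0.70 in Prlr+/+ islets and Dnajb4 at 0.87 in Prlr-/- and 0.77 in Prlr+/+ islets, and Dnajc8 in Prlr+/+ islets at 0.63. Without 1 array, Dnajc7 in Prlr-/- islets was short of the fold minimum in 3 of 12 fits, and Dnajb4 and Dnajc8 in Prlr+/+ islets lost the call in 2. Whether these lists differed between genotypes was read from the test of each gene. It called 1 of the 103 in the interaction, Hsbp1, described below, where 0.0788% of all probe sets were called lower.

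**Figure D4:**
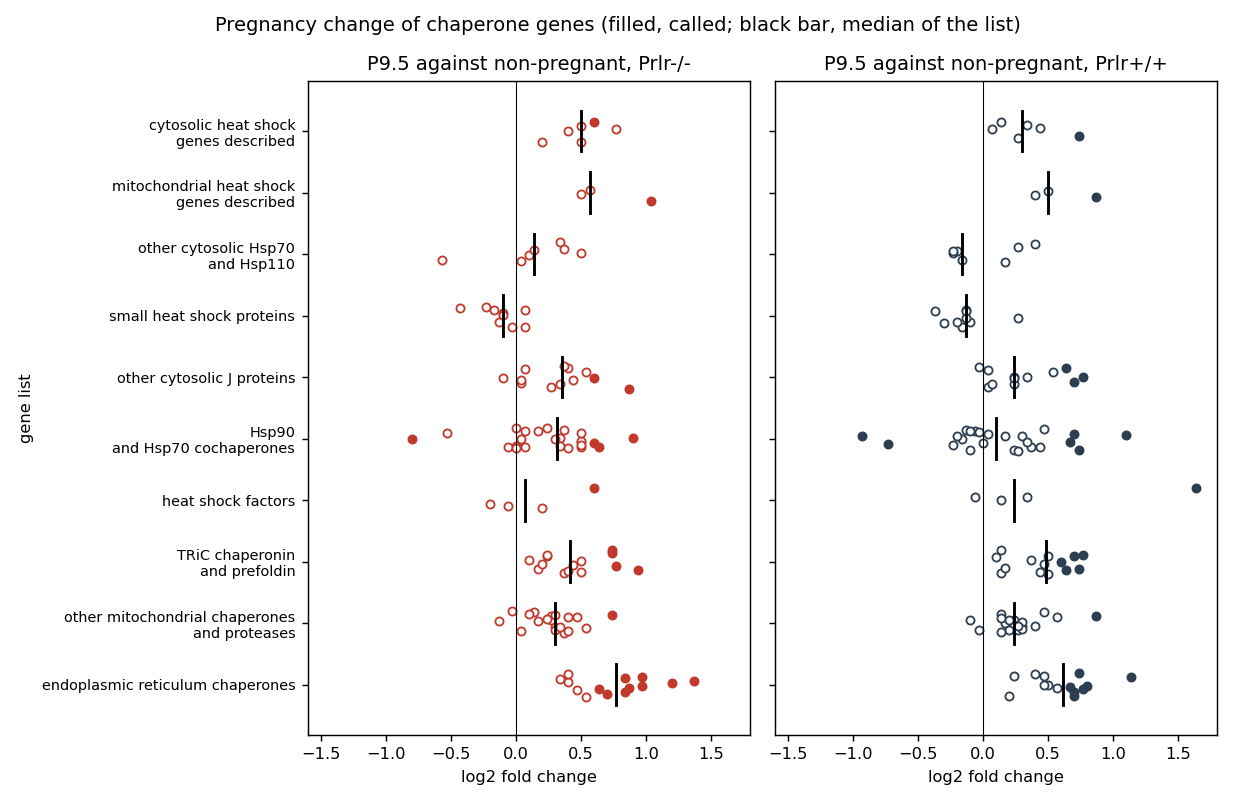
Log2 fold change in pregnancy (x axis) of each measured gene of 10 lists (rows), in Prlr-/- islets (left) and Prlr+/+ islets (right). Points are genes, filled where called, and the black bar is the median of the list. Endoplasmic reticulum chaperones have the highest medians, 0.77 in Prlr-/- and 0.62 in Prlr+/+ islets, and small heat shock proteins lie near 0.

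Among 24 cochaperones of Hsp90 and Hsp70, 3 were called higher and 1 lower in Prlr-/- islets, and 4 higher and 2 lower in Prlr+/+ islets. Chordc1, whose promoter is shown above, stood at 8.4, 8.2 and 9.1 in Prlr-/- P9.5 islets, against 7.3, 8.0 and 7.7 in Prlr-/- NP islets, and at 8.4, 8.2 and 8.0 in Prlr+/+ P9.5 islets, against 7.4, 6.8 and 7.1 in Prlr+/+ NP islets. Its log2 fold change was 0.90 ± 0.245 in Prlr-/- (adjusted p = 0.0159) and 1.10 ± 0.245 in Prlr+/+ islets (adjusted p = 0.00862), with no overlap in either genotype. The call in Prlr-/- islets was lost without replicate 3 of Prlr-/- P9.5 (0.63, adjusted p = 0.0616) or replicate 1 of Prlr-/- NP (0.72, adjusted p = 0.0685), and the call in Prlr+/+ islets held in all 12 fits without 1 array. Ptges3, the Hsp90 cochaperone p23, was called at 0.60 in Prlr-/- and 0.67 in Prlr+/+ islets, and the Hsp90-bound cyclophilin Ppid at 0.63 in Prlr-/- and 0.73 in Prlr+/+ islets. Without 1 array Ptges3 was short of the fold minimum in 2 of 12 fits in each genotype, and Ppid in 2 of 12 in Prlr-/- islets. Fkbp5 was called lower, at -0.80 ± 0.192 in Prlr-/- (adjusted p = 0.00875) and -0.93 ± 0.192 in Prlr+/+ islets (adjusted p = 0.0058), in all 12 fits without 1 array. Bag6 was called lower in Prlr+/+ islets at -0.73 and gave -0.53 in Prlr-/- islets, and Bag5, a nucleotide exchange factor of Hsp70, was called higher in Prlr+/+ islets at 0.70 and gave 0.50 in Prlr-/- islets.

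Hsbp1, which encodes heat shock factor binding protein 1, described as a negative regulator of the heat shock response, differed between the genotypes. It stood at 9.9, 9.7 and 10 in Prlr-/- P9.5 islets, against 11.4, 11.2 and 11 in Prlr+/+ P9.5 islets. In NP islets it stood at 9.6, 9.6 and 9.8 in Prlr-/- and at 9.8, 9.6 and 9.3 in Prlr+/+ mice. The Prlr+/+ P9.5 arrays were above all 9 others, which lay between 9.3 and 10. The log2 fold change of pregnancy was 0.20 ± 0.146 in Prlr-/- islets (adjusted p = 0.306) and 1.63 ± 0.146 in Prlr+/+ islets, a fold of 3.10 (adjusted p = 0.000154), and Prlr-/- against Prlr+/+ at P9.5 it was -1.33 ± 0.146 (adjusted p = 0.0017). The difference between the 2 pregnancy changes was -1.43 ± 0.206 (adjusted p = 0.0295), a call that was lost in 10 of the 12 fits without 1 array. Among them was the fit without replicate 2 of Prlr+/+ P9.5, the array with Xist at 3.8 (adjusted p = 0.07325). Of the other measured genes of this list, Hsf2, a heat shock factor, was called higher in Prlr-/- pregnancy at 0.60 ± 0.190 (adjusted p = 0.031) and gave 0.33 ± 0.190 in Prlr+/+ islets (adjusted p = 0.234). Without replicate 3 of Prlr-/- P9.5 the Prlr-/- value was 0.43 (adjusted p = 0.126), and without replicate 1 of Prlr-/- NP it was 0.47 (adjusted p = 0.12).

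**Figure D5:**
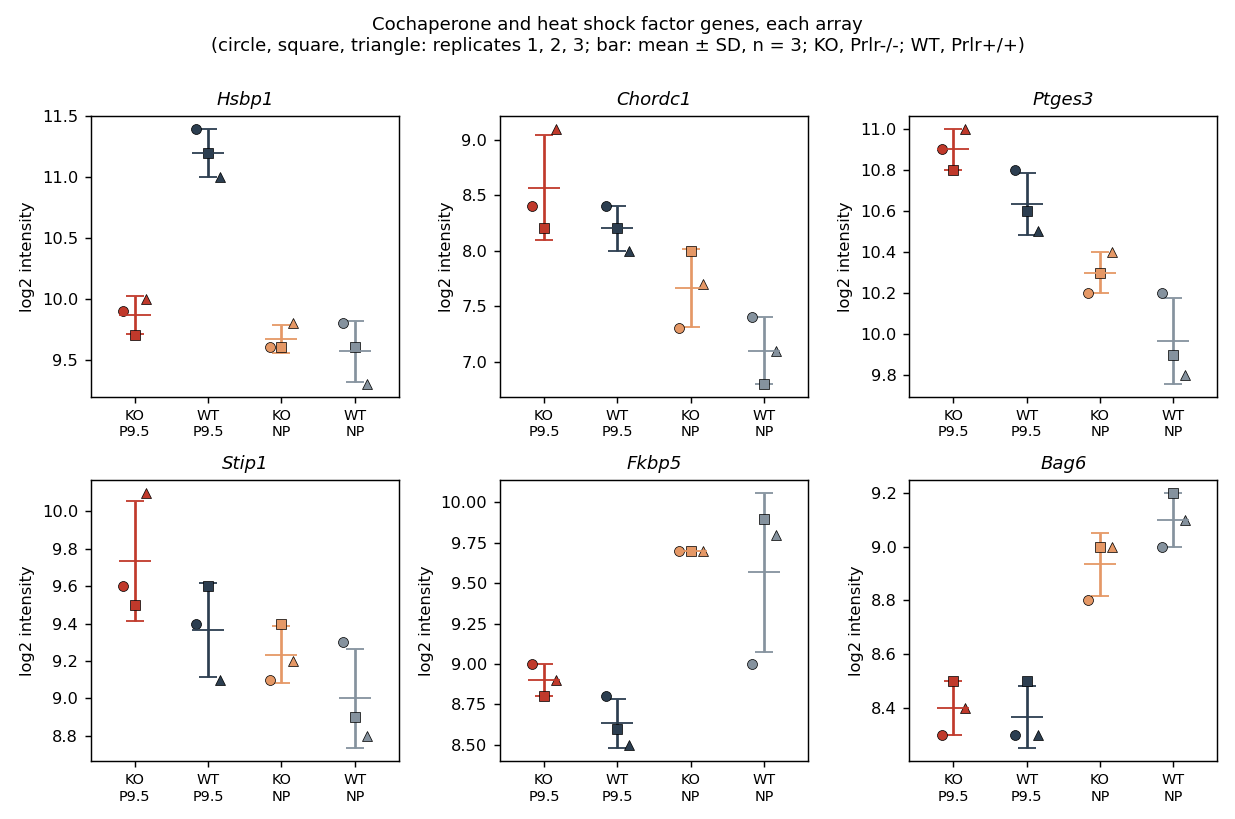
Log2 intensity (y axis, own scale for each gene) of Hsbp1 and 5 cochaperone genes on each of the 12 arrays, by group (x axis: Prlr-/- as KO, Prlr+/+ as WT, at P9.5 and non-pregnant, NP). Points are arrays, with the shape giving the replicate number, and bars are the mean ± SD of 3 arrays. Hsbp1 is high on the 3 Prlr+/+ P9.5 arrays alone (11 to 11.4), Chordc1 and Ptges3 are higher at P9.5 in both genotypes, and Fkbp5 and Bag6 have lower values there.

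As a check on handling, 15 immediate early genes that respond to islet isolation averaged 6.34 to 7.07 on the Prlr-/- P9.5 arrays, 6.37 to 6.98 on the Prlr+/+ P9.5 arrays, 6.35 to 6.61 on the Prlr-/- NP arrays and 6.41 to 6.54 on the Prlr+/+ NP arrays. On replicate 2 of Prlr-/- and of Prlr+/+ P9.5, Fos stood at 8 and 7.8, against 5.5 to 6.5 on the other P9.5 arrays. Egr1 stood at 7.4 and 7.3 there, against 5.9 to 6.2. Not every gene of the list followed, since Nr4a1 stood at 7.1, 6.9 and 6.7 in Prlr+/+ P9.5 islets. Replicate 2 of Prlr+/+ P9.5 is also the array with Xist at 3.8. Of the 15, Jun was called higher in pregnancy, at 0.83 ± 0.262 in Prlr-/- (adjusted p = 0.03) and 0.90 ± 0.262 in Prlr+/+ islets (adjusted p = 0.0301), and none was called between genotypes. The call of Jun was lost in 4 of 12 fits without 1 array in each genotype. Without replicate 2 of Prlr-/- P9.5 it was 0.57 in Prlr-/- islets (adjusted p = 0.0975). Without replicate 2 of Prlr+/+ P9.5 it was 0.63 in Prlr+/+ islets (adjusted p = 0.116). The part of the immediate early genes in the heat shock gene values was not tested.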

How the data were processed

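RNA of isolated mouse islets had been hybridised by the authors to Affymetrix MoGene_1.0_ST arrays, 1 colour, 12 arrays in 4 groups of 3. The deposited values are log2 intensities of the authors, obtained by robust multichip analysis in aroma.affymetrix and given to 1 decimal, for 35511 probe sets, with array medians of 5.7 to 5.9. Symbols came from the platform annotation: 21789 probe sets name 1 gene, 1621 several and 12101 none.

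All arrays were fitted together with limma 3.58.1 in R 4.3.3 (lmFit on 4 group means, eBayes), and p-values were adjusted by Benjamini-Hochberg over all probe sets. The residual degrees of freedom were 8. Self-tests on simulated data were run first. The genes and lists were chosen with earlier results of these data known. By rule, all 10 genes were to be named, with called list genes and up to 2 uncalled ones per list. The rule also took the 5 closest profiles among the upper 60 percent of genes by mean level. Of the called endoplasmic reticulum chaperones only Hspa13 is named here, and called cell type markers are mostly given as counts. Same-numbered arrays deviated together (r over 0.1) in 7 of 18 pairs, with a highest r of 0.227. Pairs with different numbers were not computed, so whether the numbers mark shared preparation cannot be told from these values. The labels call them biological replicates, and the main fit did not pair them. Alternatives covered normalisation, filter, fold minimum, weights, probe set choice, replicate block and each array left out.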

Additional observations from a re-analysis of the deposited data

Results flagged for a closer look

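Hsbp1 was the gene of the lists examined whose pregnancy response differed between the genotypes by the test of the difference itself. Its log2 change in pregnancy was 0.20 in Prlr-/- islets and 1.63 in Prlr+/+ islets, and the difference, Prlr-/- minus Prlr+/+, was -1.43 ± 0.206 (SE; limma, adjusted p = 0.0295). The P9.5 arrays lay above the NP arrays in Prlr+/+ islets on 3 of 3 arrays, with 11 to 11.4 at P9.5. With the replicate number as a block the adjusted p was 0.0675 and with arrays centred on their medians it was 0.0835. The call held under the other 8 alternatives that kept all arrays, but 3 of these left the fit of Hsbp1 unchanged. They were no fold minimum, a fold minimum of 2 and the mean of all probe sets naming a heat shock gene, each with an adjusted p of 0.0295. The rest gave an adjusted p of 0.0201 with an intensity trend, 0.0109 with array weights and 0.0124 with quantile normalization. It was 0.0124 without the dimmest 40 percent of probe sets and 0.00066 with 1 probe set per named gene. The call was lost in 10 of 12 fits that each left out 1 array, where the adjusted p was between 0.0239 and 0.0988 and the difference between -1.55 and -1.30, and it held without replicate 1 of Prlr+/+ NP and without replicate 3 of Prlr+/+ P9.5.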

How the results depend on the processing

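Across 1224 values of the 9 genes under the alternatives, 1166 kept direction and call, 13 lost and 17 gained a call, and 28 changed sign. Some of these fits could not move a fold change, as where the array left out was in neither group compared. No gene was called between genotypes at P9.5, in NP islets or in the interaction under any alternative. In the difference averaged over both stages, with 1 probe set per named gene, which tests fewer features, 1 gene was called (Hsph1, 0.70, adjusted p = 0.0474). The count of genes called higher in pregnancy was 2 in each genotype. In Prlr-/- islets it was 1 with array weights, 1 with quantile normalization, 5 with arrays centred on the median, 5 with no fold minimum, 3 with 1 probe set per named gene (with Dnajb1), 1 at a fold minimum of 2, and 1 to 4 without each array in turn. In Prlr+/+ islets it was 4 with no fold minimum, 0 at a fold minimum of 2, 1 with the mean of all probe sets naming a gene, and 1 to 4 without each array in turn. Hspe1 was called in both genotypes in every fit except at a fold minimum of 2 in Prlr+/+ islets, so the losses were of Dnaja1, which also fell short in Prlr-/- islets with the mean of its probe sets. The gains without an array were Dnajb1 and Hspd1 in Prlr-/- and Hsph1 and Hspd1 in Prlr+/+ islets. Centring moved the median change of all probe sets in Prlr-/- pregnancy to 0.10, against -0.067. The causes were not tested. The replicate block left 2 genes called in pregnancy in each genotype and changed no call of the 9 genes.

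Signs turned near 0. With array weights the interaction was -0.0397 for Hspa8, -0.24 for Hsph1, -0.097 for Hsp90aa1 and -0.0471 for Hspd1. With arrays centred on the median the genotype difference in NP islets was -0.0333 for Dnajb1 and -0.0667 for Hspe1, with quantile normalization it was 0.025 for Hspa4, and with the mean of all probe sets the interaction of Dnaja1 was 0.0167. Without each array in turn, the interaction lay between -0.0333 and 0.13 for Hspa8, -0.23 and 0.22 for Hsph1, -0.0833 and 0.17 for Hsp90aa1, -0.05 and 0.15 for Hspd1 and -0.33 and 0.0167 for Dnaja1, the NP genotype difference between -0.15 and 0.50 for Dnajb1, -0.0833 and 0.0167 for Hspa4 and -0.0667 and 0.13 for Hspe1, the Prlr+/+ pregnancy change of Dnajb1 between -0.15 and 0.50, and the genotype difference of Hspa9 averaged over stages between -0.0333 and 0.0167. Cytosolic minus mitochondrial, no alternative turned the sign except in the interaction.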
